A study of Mus musculus with 12 samples.

Results

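Emx2, Uncx, Tbx18 and Mn1 are developmental regulators that were picked out here because their counts were low in control spiral ganglion neurons and high in neurons labelled as lacking ISL1. Emx1 and Tbx15, close relatives of Emx2 and Tbx18, and Pou3f4, a regulator known from ear mesenchyme, were set beside them as a contrast. Emx2, Uncx, Tbx18 and Mn1 were chosen by name from the mean counts of the same contrast that is described below. Emx1, Tbx15 and Pou3f4 were named beside them with earlier results of these data known. The levels of the 7 genes are therefore given as a description without a test. A row was found for 6 of them among the 25674 gene identifiers of the count table, and the expression of Emx1 was not analysed here. Spiral ganglion neurons relay signals of the cochlear hair cells to the hindbrain. The 12 libraries each held RNA of 100 neurons sorted at E14.5, in mid-gestation, by the red reporter tdTomato, and each came from both ears of a single mouse embryo. Control embryos were Neurod1Cre;Rosa26tdTOM (6 libraries), and the ISL1CKO embryos additionally carried Isl1loxP/loxP (6 libraries). Both groups therefore carried the same Cre and reporter. Cre came from a BAC transgene under the control of Neurod1, a gene active in newly formed neurons, so other Neurod1-expressing cells could also carry the deletion and the reporter. Embryos of either sex came from 4 litters of a mixed C57BL/6/sv129 background.

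EMX2 is a homeodomain transcription factor that patterns the cerebral cortex and the urogenital system. In the inner ear it is known from the epithelium of the cochlea and from vestibular hair cells, where it sets the orientation of the hair bundle. UNCX is a paired-type homeodomain factor that marks the posterior part of each somite and maintains its identity, whereas TBX18, a T-box repressor, maintains the anterior part. TBX18 and the POU-domain factor POU3F4 are also known from the mesenchyme around the otic capsule, and loss of POU3F4 causes deafness. MN1 is a large transcriptional coregulator without a classical DNA-binding domain that is needed for the skull and the palate. ISL1 is a LIM-homeodomain factor of sensory and motor neurons.

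RefSeq start-site windows on build GRCm38.p6, each from 250 bases before to 50 bases after the transcript start, were matched by symbol for 5 of the 7 genes (Emx2, Emx1, Uncx, Tbx18 and Pou3f4), and Mn1 and Tbx15 were not among them. The letters TAATTA, the core that many homeodomain proteins bind, were searched in them and read the same on both strands. They occurred 2 times in the window of Uncx, 1 time in that of Emx2 and 0 times in those of Emx1, Tbx18 and Pou3f4. At least 1 TAATTA was present in 5.29% of the 32851 RefSeq windows of this length. The matches in Emx2 and Uncx are shown with TAATTA in capitals, because these genes had the lowest control levels. They lie at chr19:59458710-59458739, chr5:139543753-139543782 and chr5:139543856-139543885, all on the plus strand and inside exons of the GENCODE annotation, with the match beginning 36 bases after the Emx2 start and 133 and 30 bases before the Uncx start. The 250 bases before the start of Tbx18 (chr9:87731261-87731510, minus strand) are shown in lower case throughout, because they hold no match.
Emx2: tatgtgatccccgcacTAATTAggctcatg
Uncx distal: gcgtgtcaggtaTAATTAgcaatcgatatg
Uncx proximal: ccgggccgcggcTAATTAtcgagagcttga
Tbx18: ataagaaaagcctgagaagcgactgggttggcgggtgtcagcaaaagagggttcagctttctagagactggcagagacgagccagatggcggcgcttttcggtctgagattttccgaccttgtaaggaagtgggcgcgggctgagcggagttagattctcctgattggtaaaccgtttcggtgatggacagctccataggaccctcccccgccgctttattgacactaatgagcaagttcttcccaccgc
A match is a description of the letters in a window and not a measured binding site. The bHLH motif CANNTG, the same on both strands and searched independently of TAATTA, occurred 1 time each in the windows of Uncx, Emx1 and Tbx18 and 0 times in those of Emx2 and Pou3f4, against 72.3% of all windows with at least 1. The observed to expected CpG ratio was 0.943 for Uncx, 0.903 for Emx1, 0.838 for Emx2, 0.755 for Tbx18 and 0.602 for Pou3f4, against a median of 0.384 over all windows. The ratio of Uncx was above that of 90.6% of windows and the ratio of Emx2 above that of 82.2%.

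Total counts ran from 11895603 to 13857480 per library. Levels are given as CPM, a gene's share of the counts of its library after scaling, and 3 counts, the limit that a count of 0 allows, corresponded to 0.219 to 0.250 CPM. Such floors cover counting error only, since amplified reads are not independent molecules. Isl1, the targeted gene, read 1050.5 to 1588.5 CPM in the ISL1CKO-labelled libraries and 1170.7 to 1776.6 in the controls, at -0.15 on the log2 scale (edgeR quasi-likelihood test, adjusted p = 0.460), so the genotype rests on the labels. Counts over the whole gene need not show a deletion of part of it. ISL1CKO-labelled libraries 2, 3 and 5 held both Xist, at 62.9 to 132 CPM, and Y-linked transcripts, at a mean of 35.7 to 87.3 CPM, although each library is described as a single embryo. Results are therefore also given without these 3 libraries. The labels call the numbered samples technical replicates in a tag and biological replicates in the design text, so p-values measure the spread between these libraries, which may be partly technical.

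Emx2 (ENSMUSG00000043969, chr19:59458372-59465357, plus strand) was at or under 3 counts in every control library and had 145 to 584 counts in every ISL1CKO-labelled library. Its level was 0 CPM in the lowest control, 0.0767 at the control median and 0.222 in the highest control. The ISL1CKO-labelled libraries 1 to 6 read 11.5, 21.9, 21.2, 37.1, 42.6 and 34.2 CPM. The groups did not overlap, and the lowest of the 6, library 1, lay far above the highest control. Against the floor over the controls, the mean of 28.1 ± 11.8 CPM (SD, n = 6) was at least 120-fold higher. The fitted log2 fold change was 8.14 (SE 0.49), a value that depends on the prior count because the controls were near 0.

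Uncx (ENSMUSG00000029546, chr5:139543494-139548179, plus strand) had 1 to 3 counts in every control library and 227 to 1318 in every ISL1CKO-labelled library. Control levels were 0.074, 0.0833 and 0.22 CPM at the lowest, median and highest library. The 6 ISL1CKO-labelled libraries read 30.2, 30.0, 17.1, 75.5, 96.1 and 39.1 CPM. Libraries 4 and 5 stood highest, and even library 3, the lowest, did not approach the controls. The mean was 48.0 ± 30.8 CPM (SD, n = 6), at least 206-fold above the floor over the controls, with a fitted log2 fold change of 8.58 (SE 0.55). Uncx varied most of the 4 raised genes among the ISL1CKO-labelled libraries, with a coefficient of variation of 64.2% against 41.9% for Emx2, 25.4% for Tbx18 and 13.0% for Mn1.

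Tbx18 (ENSMUSG00000032419, chr9:87702800-87731260, minus strand) was not near absent in all controls. Control libraries 1 to 6 held 16, 19, 0, 0, 47 and 1 counts, so 3 of the 6 were above 3 counts and control 5 reached 3.73 CPM. The ISL1CKO-labelled libraries read 24.6, 40.9, 49.7, 34.7, 35.8 and 51.4 CPM. All 6 lay above every control, and the means were 39.5 ± 10.0 against 1.09 ± 1.45 CPM (SD, n = 6 each), a ratio of 36.3. The fitted log2 fold change was 5.18 (SE 0.75), and it was 6.12 without control 5.

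Mn1 (ENSMUSG00000070576, chr5:111417362-111457033, plus strand) differed from the others in that it was present in every control, at 58 to 362 counts. Control levels were 4.82, 14.7 and 26.8 CPM at the lowest, median and highest library. The ISL1CKO-labelled libraries read 318, 328, 330, 386, 439 and 343 CPM. The groups were separate, and the spread was small beside the distance between them, with means of 357 ± 46.6 and 15.4 ± 7.44 CPM (SD, n = 6 each). The ratio of means was 23.3 and the log2 fold change 4.54 (SE 0.30). The description as near absent in controls therefore held in full for Emx2 and Uncx, held in 3 of 6 controls for Tbx18, and did not hold for Mn1.

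Tbx15 (ENSMUSG00000027868, chr3:99240381-99354259, plus strand), the relative of Tbx18, was at 2 counts or fewer in 10 of the 12 libraries and did not pass the filter for testing. The exceptions were control 5 with 46 counts, or 3.65 CPM, and ISL1CKO-labelled library 1 with 18 counts, or 1.43 CPM. Control 5 was also the control with the most Tbx18, whereas library 1 had the least Tbx18 of its group. No difference between the groups was detectable for Tbx15 at this depth.

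Pou3f4 (ENSMUSG00000056854, chrX:110814280-110817207, plus strand) went the other way from the 4 raised genes. It read 34.7, 51.7 and 77.9 CPM at the lowest, median and highest control, and 4.01, 31.2 and 42.1 CPM at the lowest, median and highest ISL1CKO-labelled library. Of the 6 ISL1CKO-labelled libraries 5 lay below the lowest control, and library 1 did not, so the groups overlapped. The means were 27.4 ± 13.4 against 52.9 ± 16.4 CPM (SD, n = 6 each), a ratio of 0.517 and a log2 fold change of -0.95 (SE 0.38). In bulk libraries a change in the number of cells that express a gene and a change in RNA per cell cannot be told apart.

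**Figure D1:**
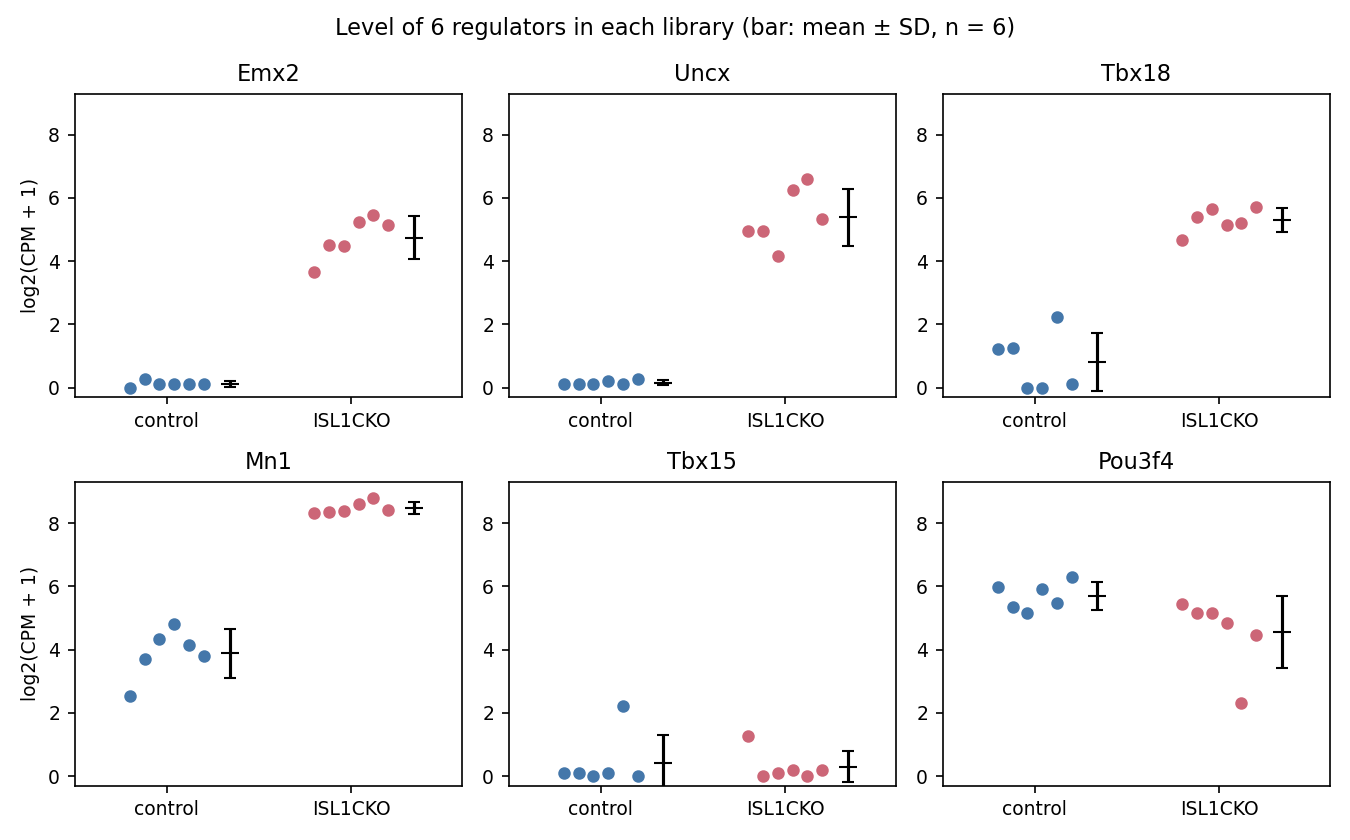
Level of the 6 genes with a row in each library, as log2(CPM + 1) on the vertical axis, for 6 control (blue) and 6 ISL1CKO-labelled (red) libraries in order of replicate number, with mean and SD beside the points. Emx2 and Uncx lie near 0 in all controls, Tbx18 is scattered there, Mn1 is present in all 12 libraries, Tbx15 is near 0 except in control 5 and ISL1CKO 1, and Pou3f4 is lower on average in ISL1CKO with overlapping groups.

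The 4 raised genes were also high in the ISL1CKO-labelled libraries other than the 3 with both Xist and Y-linked transcripts. In libraries 2, 3 and 5 Emx2 read 21.2 to 42.6 CPM, against 11.5 to 37.1 in libraries 1, 4 and 6. Uncx read 17.1 to 96.1 against 30.2 to 75.5 CPM, Tbx18 read 35.8 to 49.7 against 24.6 to 51.4, and Mn1 read 328 to 439 against 318 to 386. The ranges overlapped for each of these genes. Fitted without the 3 libraries, the log2 fold changes were 8.11 (SE 0.57) for Emx2, 8.58 (SE 0.40) for Uncx, 5.07 (SE 0.97) for Tbx18, 4.50 (SE 0.35) for Mn1 and -0.81 (SE 0.29) for Pou3f4.

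Levels can be compared between genes only per length, here as CPM per kilobase of annotated exon. In the ISL1CKO-labelled libraries Mn1 led at 51.5 ± 6.72 (SD, n = 6), and its lowest library, at 45.8, was above the highest of every other member. Uncx followed at 15.3 ± 9.83, then Emx2 at 9.35 ± 3.92, Pou3f4 at 9.35 ± 4.59 and Tbx18 at 8.38 ± 2.13, and the ranges of these 4 overlapped. Tbx15 was last at 0.0802. In the controls the order was different, with Pou3f4 first at 18.1 CPM per kilobase, Mn1 next at 2.21, and Tbx18 at 0.231. Uncx and Emx2 were last there, at 0.0365 and 0.0295.

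Over all genes, 14813 passed the expression filter, and edgeR called 742 of them higher (5.01%) and 769 lower (5.19%) in the ISL1CKO-labelled libraries at an adjusted p under 0.05. The libraries of the groups did not overlap, with all ISL1CKO-labelled libraries above all controls, for 463 genes (3.13%). Emx2, Uncx, Tbx18 and Mn1 are among these, as the choice of the genes implies, and nothing is read from that count. A stricter pattern, at most 3 counts in every control and over 10 in every ISL1CKO-labelled library, was met by 10 of the 25674 genes (0.0389%), 8 of them protein coding. By mean CPM in the ISL1CKO-labelled libraries Uncx was the second and Emx2 the third of these, after Sytl4, which encodes a synaptotagmin-like protein, at 79.7 ± 51.1 CPM. The opposite pattern was met by 6 genes (0.0234%), 2 of them protein coding. No other homeobox or T-box gene on the lists used here met either pattern.

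The genes whose levels followed each raised gene most closely over the 12 libraries were found by Pearson's r of log2(CPM + 1). These values mainly restate that the libraries form 2 groups, and they are given as a description. For Emx2 the closest were Lhx1os (r = 0.991), Brinp3 (r = 0.990) and Lhx1 (r = 0.986). For Uncx they were Ptprz1 (r = 0.990), Sytl4 (r = 0.986) and again Lhx1os (r = 0.982). For Tbx18 they were Cdh7, a cadherin (r = 0.984), Cbln2, a secreted synaptic protein (r = 0.983), and Khdrbs2, an RNA-binding protein (r = 0.982). For Mn1 they were Lhx2 (r = 0.987), Efna5, an ephrin (r = 0.985), and Serpinb8, a protease inhibitor (r = 0.984). Brinp3 averaged 0.416 CPM in the controls and 161 in the ISL1CKO-labelled libraries, and Cbln2 averaged 9.24 and 490.

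Annotated neighbours were read beside each gene, from the nearest counted gene on each side and any overlapping gene. Of 15 such genes 8 were tested and 3 passed the edgeR test, all higher, where 5.01% of all tested genes were called higher. Emx2os and Gm37374, with at most 4 and 3 counts in any control, could pass the expression filter only through the ISL1CKO-labelled libraries. Nothing is therefore read from the count of 3. Emx2os, the antisense transcript that starts at the Emx2 promoter and overlaps Emx2 by 264 bases (chr19:59425104-59458635, minus strand), had 0, 0, 0, 1, 4 and 0 counts in the controls and 50, 88, 38, 79, 170 and 23 in the ISL1CKO-labelled libraries. The groups did not overlap, and the means were 0.0652 and 5.62 ± 3.82 CPM (SD, n = 6), with a log2 fold change of 6.24 (SE 0.88, edgeR adjusted p = 2.86e-04). Without control 5, which held 4 of the control counts, it was 7.81. Gm37374, a transcript awaiting experimental evidence 6.93 kb upstream of Tbx18 (chr9:87738192-87740020, minus strand), had 0 to 3 counts in the controls and 15 to 80 in the ISL1CKO-labelled libraries. It was at least 11.7-fold higher against the floor (log2 fold change 4.28, SE 0.76, edgeR adjusted p = 0.00182).

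Upstream of Uncx, the long noncoding RNA 4930500L23Rik (chr5:139523749-139541339, plus strand), 2.15 kb away, had a single count in all controls together. It had 10, 8, 15, 8, 7 and 10 counts in the ISL1CKO-labelled libraries, at least 3.15-fold above the floor, but was too low for the filter and was not tested. The third neighbour that passed, Rps6ka6, lies 571 kb from Pou3f4 and rose from 43.3 to 94.8 CPM (log2 fold change 1.13, SE 0.18, edgeR adjusted p = 9.47e-04). The protein-coding neighbours of the raised genes did not pass. Their log2 fold changes were -0.33 for Pdzd8, 113 kb from Emx2 (adjusted p = 0.586), 1.38 for Micall2, 159 kb from Uncx (adjusted p = 0.231), 0.47 for Cep162, 447 kb from Tbx18 (adjusted p = 0.116), and 0.08 for Pitpnb, 29.0 kb from Mn1 (adjusted p = 0.718, all from edgeR). Wars2, the close neighbour of Tbx15, read -0.37 (adjusted p = 0.360). The other noncoding neighbours, none of them tested, had groups that overlapped. D030062O11Rik, which overlaps Tbx18 by 1976 bases, had 0 to 6 counts in the controls and 0 to 12 in the ISL1CKO-labelled libraries. Gm43119, which overlaps Mn1 by 2122 bases, had 0 to 3 and 0 to 22 counts, and C130026L21Rik, 124 kb from Mn1, had 0 to 7 and 0 to 60. The pseudogenes AC098733.1 near Emx2 and M6pr-ps near Tbx15 and the noncoding gene Gm44593 near Pou3f4 had at most 6 counts in any library. Whether the counting used strand is not given in the sources used here, so the counts of overlapping genes, Emx2os and Emx2 included, are uncertain where they share bases.

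**Figure D2:**
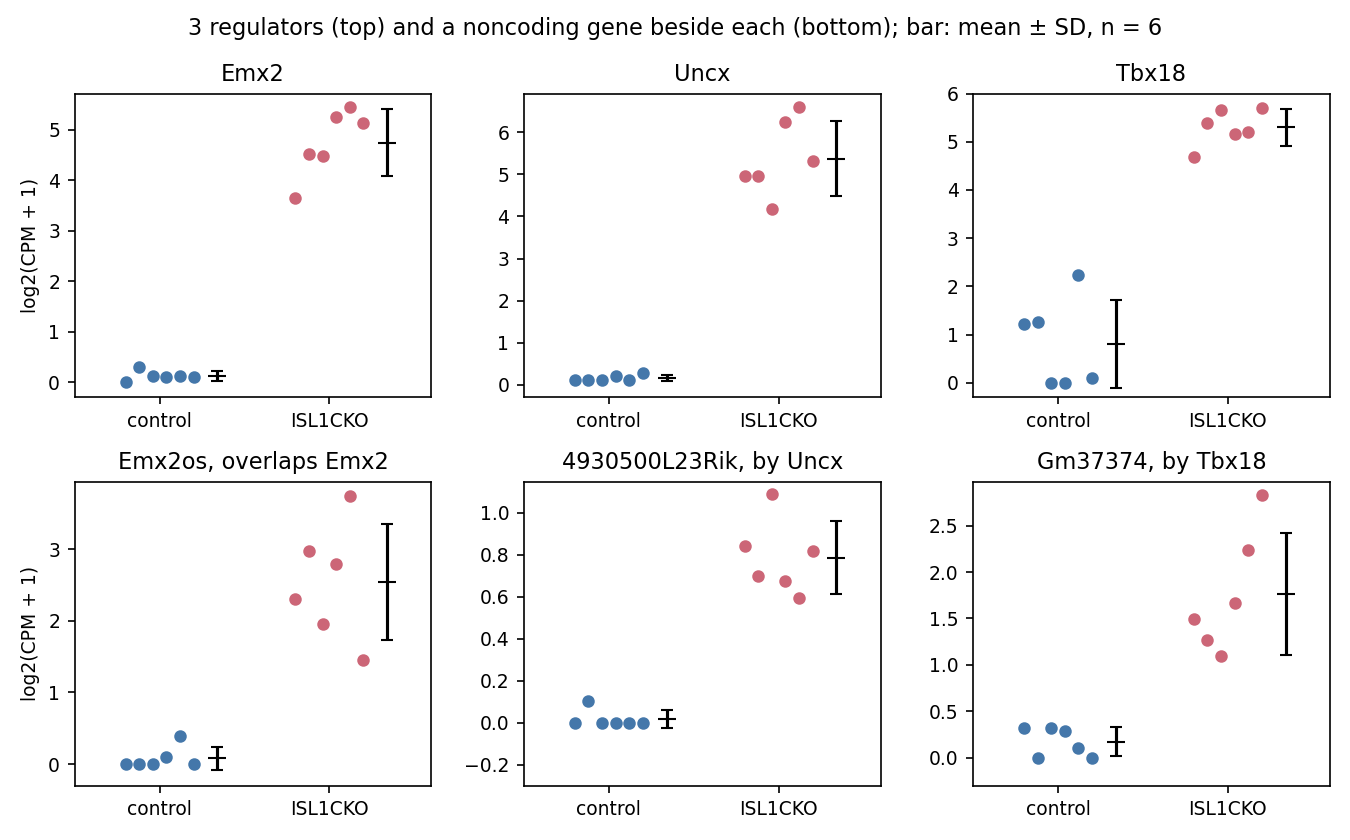
Levels of Emx2, Uncx and Tbx18 (top) and of Emx2os, 4930500L23Rik and Gm37374 (bottom) in each library as log2(CPM + 1), for 6 control (blue) and 6 ISL1CKO-labelled (red) libraries, with mean and SD beside the points and a separate vertical scale in each panel. These 3 noncoding neighbours, chosen for the plot after their values were seen, are at or near 0 in all controls and above them in all 6 ISL1CKO-labelled libraries, at levels well under those of the neighbouring regulators.

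Among the other homeobox genes, 139 of 212 listed had a row and 51 were tested. Of these 11 rose and 9 fell, or 21.6% and 17.6%, against 5.01% and 5.19% of all tested genes, and their median log2 fold change was 0.06 against 0.0045. The largest rises were in LIM-homeobox genes, the family of Isl1. Lhx2, which patterns the forebrain and the eye, read 1.66 to 6.9 CPM in the controls and 194 to 528 in the ISL1CKO-labelled libraries (log2 fold change 6.25, SE 0.36, edgeR adjusted p = 5.36e-08). Lhx1, a regulator of spinal and cerebellar neurons, read 7.11 to 19.9 and 125 to 354 CPM (log2 fold change 4.15, SE 0.31, edgeR adjusted p = 5.84e-07). Neither pair of ranges overlapped, but both genes, like Mn1, had measurable control levels. Zfhx4 and Six4 also rose, by 0.64 and 0.66 on the log2 scale, and Pknox2 rose by 1.17 (edgeR adjusted p = 4.48e-04, 0.00366 and 0.00379).

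The homeobox genes that fell included Isl2, the paralogue of Isl1, at 205 to 365 CPM in the controls and 37.6 to 81.1 in the ISL1CKO-labelled libraries (log2 fold change -2.15, SE 0.20, edgeR adjusted p = 4.85e-06). Six2, a regulator of kidney and craniofacial progenitors, read 16.3 to 30.0 and 0.931 to 8.43 CPM (log2 fold change -2.56, SE 0.42, edgeR adjusted p = 9.47e-04). Irx1 and Irx2, a linked pair of Iroquois genes, read -1.52 and -1.14 on the same log2 scale (edgeR adjusted p = 9.90e-04 and 8.12e-04). Zfhx2 and Shox2 had values of -0.65 and -0.55 (edgeR adjusted p = 1.97e-04 and 0.00173). Among the relatives of Pou3f4, singled out after their values were seen, Pou3f2 fell from 19.6 ± 6.86 to 6.12 ± 2.66 CPM (SD, n = 6 each), a log2 fold change of -1.68 (SE 0.32, edgeR adjusted p = 0.00335). Pou3f3 had a log2 fold change of 0.06 (SE 0.55, edgeR adjusted p = 0.967). Pou3f1 was not tested and averaged 1.13 CPM in the controls and 0.292 in the ISL1CKO-labelled libraries. Its ranges overlapped, at 0.512 to 1.59 and 0.149 to 0.554 CPM.

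Of the T-box genes other than Tbx18 and Tbx15, 11 of 15 listed had a row and 2 were tested. Tbx3, a T-box repressor known from limb and otic development, passed with a log2 fold change of 2.27 (SE 0.65, edgeR adjusted p = 0.0379). Its ranges overlapped, at 0.332 to 4.88 CPM in the controls and 2.90 to 21.1 in the ISL1CKO-labelled libraries. The call was lost in 10 of the alternative settings. Without libraries 2, 3 and 5 it read 0.90 (edgeR adjusted p = 0.609), and the call was also lost without any 1 of these 3 libraries, without control 1, 4, 5 or 6 alone, with limma-voom and with no expression filter. Mga, the other tested gene, read -0.12 (edgeR adjusted p = 0.617).

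**Figure D3:**
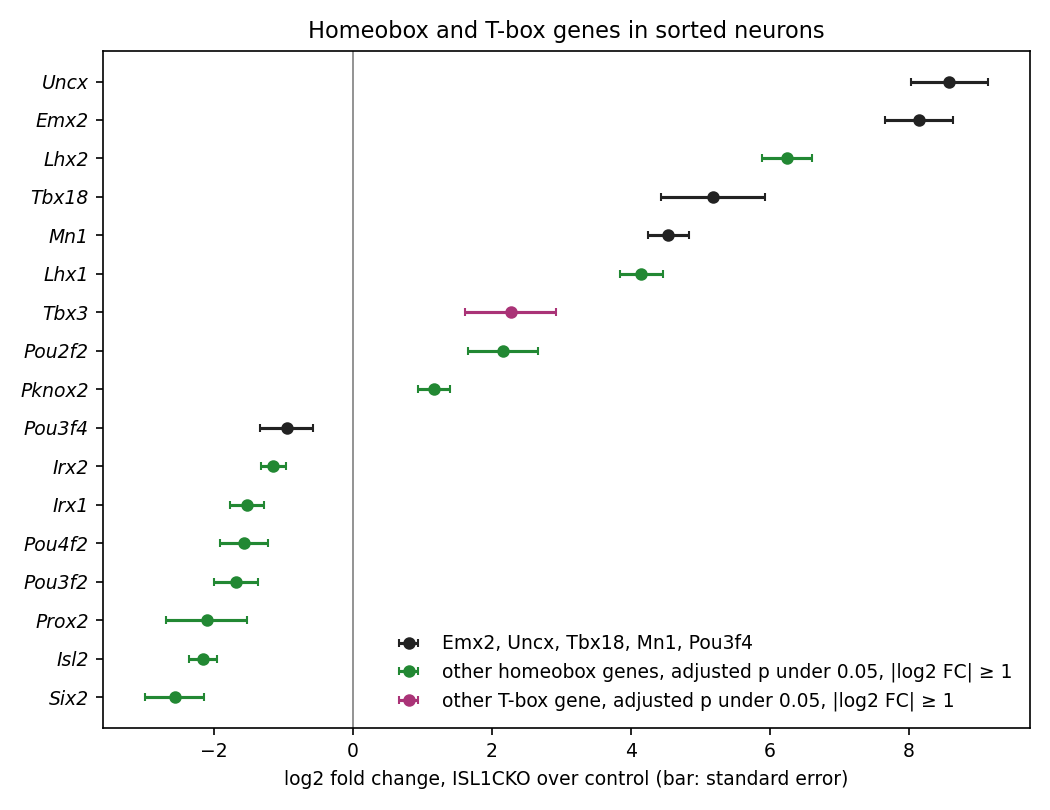
Log2 fold change of ISL1CKO over control on the horizontal axis, with its standard error as a bar, for Emx2, Uncx, Tbx18, Mn1 and Pou3f4 (black, given without a test) and for other homeobox (green) and T-box (purple) genes with an adjusted p under 0.05 and a log2 value of 1 or more in either direction, ordered by value. Uncx, Emx2, Lhx2, Tbx18, Mn1 and Lhx1 have the 6 highest values shown, and Six2 and Isl2 the lowest.

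Genes known to act in the settings in which EMX2, UNCX and TBX18 work were counted in the same fit. Of 26 forebrain patterning genes 22 had a row and 8 were tested, and 3 rose (37.5%, against 5.01% of all tested genes) and 0 fell, with a median log2 fold change of 0.67. They included Lhx2 and Pbx3, which are also on the homeobox list, and Pbx3, at a log2 fold change of 0.67, passed (edgeR adjusted p = 0.0145). Without libraries 2, 3 and 5 its log2 fold change was 0.68 (adjusted p = 0.0938), so the value stayed and the call was lost.

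Of 21 genes listed for somites and their polarity, 15 had a row and 6 were tested. Of these 0 rose and 2 fell (33.3%, against 5.19% of all tested genes), with a median log2 fold change of -1.22. The 2 that fell, Epha4 and Sox9, also act outside somites. Epha4, an Eph receptor of the anterior somite and of axon guidance, read 104 to 190 CPM in the controls and 36.8 to 71.4 in the ISL1CKO-labelled libraries, a log2 fold change of -1.39 (SE 0.18, edgeR adjusted p = 1.19e-04). Sox9, a regulator of cartilage and of otic and glial progenitors, fell from 53.2 ± 13.5 to 12.7 ± 9.55 CPM (log2 fold change -2.07, SE 0.38, edgeR adjusted p = 0.00228).

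All 14 genes of hair-bundle orientation and planar polarity had a row and 13 were tested, and 2 rose (15.4%, against 5.01% of all tested genes) and 0 fell, with a median of 0.21. Ccdc88c, which encodes the G-protein regulator DAPLE, rose from 12.7 ± 6.3 to 47.2 ± 10.7 CPM (log2 fold change 1.89, SE 0.29, edgeR adjusted p = 5.54e-04). Fzd3, a Frizzled receptor of axon guidance, rose by 0.62 on the log2 scale (SE 0.12, edgeR adjusted p = 0.00297). Stk32a, a kinase gene that EMX2 represses in hair cells, did not pass and read 1.82 and 1.19 CPM (log2 fold change -0.62, SE 0.64, edgeR adjusted p = 0.622).

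Markers of other cell types were summed in each library beside these results. Mesenchyme matters most for Tbx18, Tbx15 and Pou3f4, and 18 of 22 mesenchyme markers had a row. Their sum was 32.8 to 145 CPM in the ISL1CKO-labelled libraries and 18.9 to 56.0 in the controls, so the ranges overlapped. Of 5 tested markers 1 rose (20.0%, against 5.01% of all tested genes) and 0 fell, with a median log2 fold change of 1.46. That marker was the fibrillar collagen gene Col3a1, which rose from 2.66 ± 1.61 to 14.1 ± 7.34 CPM (SD, n = 6 each, log2 fold change 2.40, SE 0.44, edgeR adjusted p = 0.00241), and which read 1.95 without libraries 2, 3 and 5 (adjusted p = 0.0577). The most abundant markers, Postn and Coch, did not pass, with 9.93 and 12.8 CPM in the controls and 27.2 and 10.9 in the ISL1CKO-labelled libraries (edgeR adjusted p = 0.600 and 0.772). Defining markers Col1a1, Dcn, Lum, Pdgfra and Twist1 were among 10 of the 18 whose median over the 12 libraries was at or under 3 counts.

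Prrx1 and Twist1 were not tested and were singled out among the 18 after their values were seen. Prrx1 read 0.0834 to 0.665 CPM in the controls and up to 7.92 in the ISL1CKO-labelled libraries, of which 1 was at 0. Twist1 read 0.25 to 2.37 CPM in the controls and at most 0.0776 in the ISL1CKO-labelled libraries. Tbx18 was read beside the marker sum in every library. ISL1CKO-labelled libraries 1, 2 and 5, with marker sums of 81.4, 145 and 110 CPM, had 24.6, 40.9 and 35.8 CPM of Tbx18. ISL1CKO-labelled libraries 3, 4 and 6, with marker sums of 40.3, 38.5 and 32.8 CPM, had 49.7, 34.7 and 51.4 CPM of Tbx18. Postn gave 31.4, 72.5 and 52.0 CPM of the sums in libraries 1, 2 and 5, and at most 7.24 CPM in libraries 3, 4 and 6. Schwann cell and glial marker sums split alike, at 152, 225 and 216 CPM against 22.1, 48.7 and 16.4 CPM. Whether the mesenchyme marker sum followed mesenchyme or glia was not tested. Controls 3, 4, 5 and 6, with marker sums of 35.7, 56.0, 44.2 and 36.5 CPM, had at most 3.73 CPM of Tbx18, and controls 1 and 2, with marker sums of 19.3 and 18.9 CPM, had 1.33 and 1.41 CPM.

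**Figure D4:**
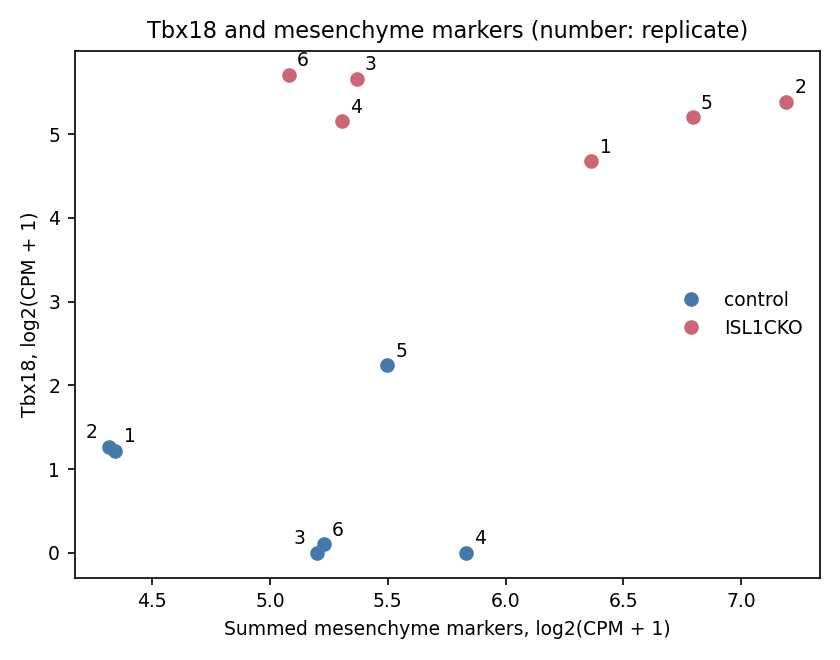
Summed mesenchyme markers against Tbx18, both as log2(CPM + 1), for 6 control and 6 ISL1CKO-labelled libraries, numbered by replicate. The marker sums of the groups overlap. All 6 ISL1CKO-labelled libraries lie above all controls in Tbx18, as the choice of this gene implies, and nothing is read from that separation.

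Pericytes, another cell type known for Tbx18, had 9 of 10 markers in the table, of which 8 had a median at or under 3 counts. Their sum did not overlap, at 6.55 to 20.3 CPM in the ISL1CKO-labelled libraries and 1.17 to 6.18 in the controls. The tested marker, Vtn, did not pass (log2 fold change 0.99, edgeR adjusted p = 0.205), and Abcc9, picked after its values were seen, averaged 2.69 CPM against 0.0278 in the controls. Abcc9 was not tested and its groups overlapped, at 0.0753 to 5.9 CPM and 0 to 0.0834 CPM, with at most 1 count in any control. Where 1 control, ISL1CKO-labelled library 3, libraries 2, 3 and 5 or the expression filter was left out, 1 pericyte marker was called higher. The sum of cochlear epithelium markers, the ear tissue best known for Emx2, was 3.28 to 9.11 CPM against 1.75 to 15.0 in the controls. None of its 3 tested markers passed, and Cdh1, Oc90, Otog and Otx2 had medians at or under 3 counts. The part of mesenchyme, pericytes and epithelium in the levels of Tbx18 and Emx2 was not tested.

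The remaining cell types were summarised in the same way. Macrophage markers reached 809 CPM in ISL1CKO-labelled library 4 and 420 in control 1, and their lowest sums were 1.46 and 2.07. Schwann cell and glial markers summed to 16.4 to 225 CPM against 9.47 to 158 in the controls, hair cell markers to 289 to 577 against 244 to 498, endothelial markers to 0.61 to 30.1 against 0.512 to 2.07, and melanocyte markers to 1.24 to 4.81 against 0.586 to 1.35. None of the tested macrophage, Schwann cell and glial, or hair cell markers passed, and no endothelial or melanocyte marker was tested. The median log2 fold change was 1.72 for macrophage, 1.1 for Schwann cell and glial, and -0.4 for hair cell markers. Without control 1, 2 macrophage markers were called higher. The hair cell sum was mostly Myo6, which neurons also express, while Pou4f3 and Gfi1 had medians at or under 3 counts. All 14 neuronal markers were present, with sums of 14374.6 to 16667.0 CPM in the ISL1CKO-labelled libraries and 16588.2 to 18934.3 in the controls. Among them 3 rose and 4 fell, with a median log2 fold change of -0.09. These are 21.4% and 28.6% of the 14, against 5.01% and 5.19% of all tested genes. Nefm and Nefl fell (log2 fold changes -1.92 and -1.38, edgeR adjusted p = 2.63e-04 and 3.17e-04). Slc17a6 and Stmn2 rose (0.87 and 0.54, edgeR adjusted p = 1.14e-04 and 6.08e-04). The neuron-specific tubulin gene Tubb3 had a value of 0.30 (edgeR adjusted p = 0.101).

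The variation among the 6 ISL1CKO-labelled libraries was not used in choosing the genes, so relations within this group were tested with exact 2-sided permutation over all 720 pairings. Mn1 was highest in libraries 5 and 4, which were also highest in Uncx and in Emx2. Uncx and Mn1 had r = 0.895 (exact permutation p = 0.0139, adjusted p = 0.139 over 10 relations) and rho = 0.771 (exact permutation p = 0.103, adjusted p = 0.343). With libraries 4 and 5, the 2 most distant from the median of Uncx, left out, r was 0.275. That omission narrows the range of Uncx and leaves 4 libraries, so it cannot settle the relation. With any 1 ISL1CKO-labelled library left out, r was 0.832 to 0.977. Emx2 and Mn1 had r = 0.809 (exact permutation p = 0.0556, adjusted p = 0.278) and rho = 0.943 (exact permutation p = 0.0167, adjusted p = 0.167), and leaving out the 2 libraries most distant from the Emx2 median gave an r of 0.828. Emx2 and Uncx had r = 0.717 (exact permutation p = 0.115, adjusted p = 0.384) and rho = 0.829 (exact permutation p = 0.0583, adjusted p = 0.292), and the same omission gave an r of 0.880.

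The relations of Tbx18 with the other raised genes were smaller or changed sign between measures. With Mn1 it had r = -0.0512 (exact permutation p = 0.896) and rho = 0.143 (exact permutation p = 0.803), and r was -0.764 with libraries 1 and 6 left out. With Uncx it had r = -0.281 (exact permutation p = 0.585) and rho = -0.314 (exact permutation p = 0.564), and r was -0.161 with libraries 4 and 5 left out. With Emx2 it had r = 0.459 (exact permutation p = 0.356) and rho = 0.0857 (exact permutation p = 0.919), and r was -0.324 with libraries 1 and 5 left out. With the mesenchyme marker sum, r was -0.421 for Tbx18 (exact permutation p = 0.408), with a rho of -0.314 (exact permutation p = 0.564) and an r of -0.208 with libraries 1 and 6 left out. The other 3 genes had r between -0.221 and 0.130 and rho between -0.257 and -0.0857 with that sum. The adjusted p of these 7 relations was 0.817 to 0.896 for r and 0.919 for rho. Postn gave 31.4, 72.5 and 52.0 CPM of the marker sum in libraries 1, 2 and 5, and at most 7.24 CPM in the others. Whether the sum followed mesenchyme was not tested. Col3a1, the mesenchyme marker that passed, read 6.41, 28.2, 12.6, 13.4, 12.8 and 11.3 CPM in libraries 1 to 6. Its relation to Tbx18 was not tested. In all, 0 of the 10 relations passed after adjustment and 1 had an unadjusted p under 0.05 by Pearson's r, while 6 libraries could give an unadjusted p as small as 0.00278. The 3 libraries on either side of the split by Xist and Y-linked transcripts are too few for a value within each.

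**Figure D5:**
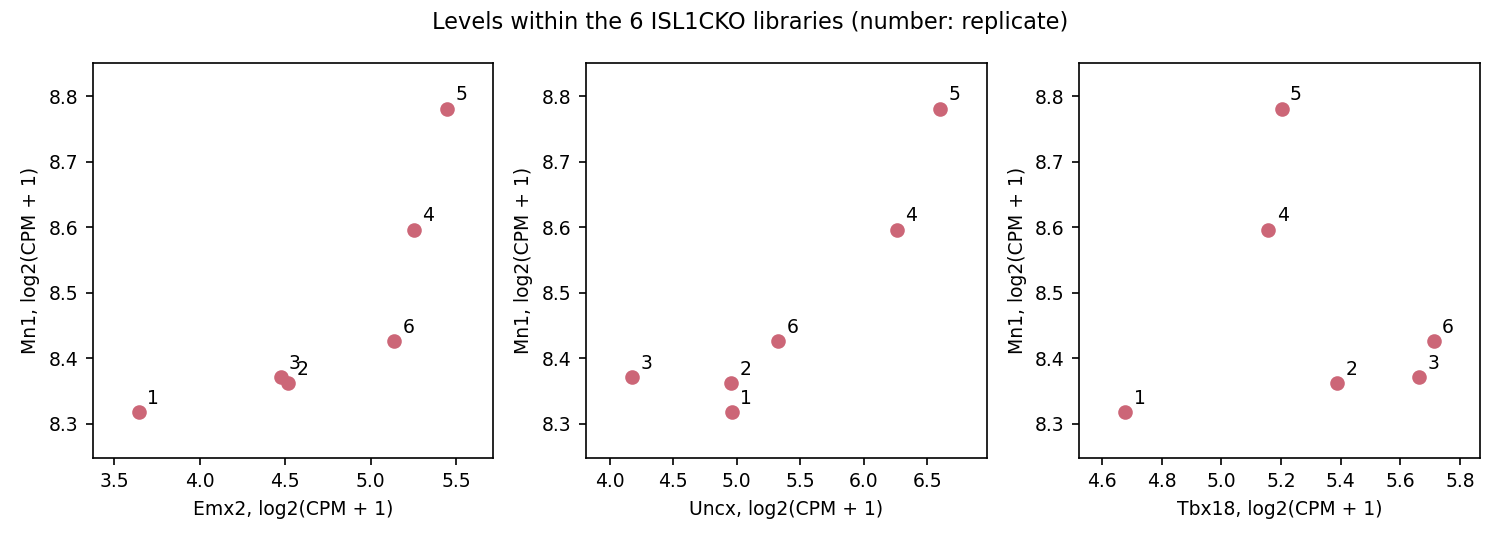
Mn1 against Emx2, Uncx and Tbx18 in the 6 ISL1CKO-labelled libraries, each axis as log2(CPM + 1) with its own range and points numbered by replicate. Mn1 is highest in libraries 4 and 5, which also lead in Emx2 and Uncx, whereas Tbx18 is highest in libraries 3 and 6.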

How the data were processed

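The authors deposited raw counts of reads per gene for 12 libraries. Per the submitters' processing notes, cutadapt 1.18, Bowtie 1.2.2, STAR 2.7.0c, featureCounts and GRCm38.p6 were used; strand use is not given in the sources used here. Coordinates and exon lengths are those of GENCODE M21, matched by identifier for 25620 of 25674 genes. CPM were computed from the counts after TMM scaling. edgeR 4.0.16 under R 4.3.3 tested ISL1CKO against control (filterByExpr with a minimum count of 10, robust quasi-likelihood test, no covariate, Benjamini-Hochberg adjustment over 14813 genes, threshold 0.05), after a check on simulated counts. That check recovered 46.4% of genes given a log2 change of 1 in either direction and 82.1% of those given 2. A gene that did not pass can therefore still differ between the groups. DESeq2 1.42.0, limma 3.58.1 (voom), DESeq2 size factors, no filter, other prior counts and pseudocounts, a replicate block, each library left out and 3 libraries left out were tried as alternatives. Homeobox, T-box, forebrain, somite, hair-bundle and 9 marker lists, and the members, were chosen with earlier results of these data known. Named genes were the members, their 3 most similar genes, their neighbours, the called genes of smallest p in each list (up to 6 per direction for homeobox genes, up to 4 for the others), the 2 most abundant and up to 3 called genes of each marker list, and Isl1. A few genes of the rule are not reported here by name and enter only through their list's counts. Same-numbered libraries did not deviate together, so numbers were not treated as pairs.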

Additional observations from a re-analysis of the deposited data

Results flagged for a closer look

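Among 30 sets of 6 values (members and marker sums in each group), 7 had a library whose gap to the nearest other exceeded Dixon's 95% critical value. Chance gives about 1.5 for independent, normally distributed values, which these CPM need not be, so the 2 numbers are not compared. Tbx15 stood out in control 5 at 3.65 CPM, where the other controls read 0 to 0.0831. It also stood out in ISL1CKO-labelled library 1 at 1.43 CPM, where the others read 0 to 0.152. The pericyte marker sum was 20.3 CPM in ISL1CKO-labelled library 2, against 6.55 to 11.6 in the others. The endothelial marker sum was 30.1 CPM in ISL1CKO-labelled library 3, against 0.61 to 5.82. The macrophage marker sum was 809 CPM in ISL1CKO-labelled library 4, against 1.46 to 280, and 420 CPM in control 1, against 2.07 to 69.6. The melanocyte marker sum was 4.81 CPM in ISL1CKO-labelled library 5, against 1.24 to 2.32. None of the values of Emx2, Uncx, Tbx18, Mn1 or Pou3f4 was marked in this way.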

How the results depend on the processing

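The members and the named genes that passed kept their direction under every alternative run, whereas some genes and relations that did not pass changed sign. Leaving out 1 library took Tecta, a cochlear epithelium marker, from -0.33 to 0.90 and Myo6 from -0.11 to 0.10 on the log2 scale. It took r from -0.52 to 0.638 for Emx2 with Tbx18 and from -0.533 to 0.422 for Mn1 with the mesenchyme sum. Without ISL1CKO-labelled libraries 2, 3 and 5, the calls over all tested genes fell from 1511 to 767, the homeobox genes called higher from 11 to 7 and the mesenchyme markers called higher from 1 to 0, with fewer libraries in that fit. Mesenchyme markers called higher numbered 2 with the DESeq2 Wald test and 2 with no filter. With a prior count of 2 the log2 fold change was 6.86 for Emx2 and 7.48 for Uncx, and with limma-voom it was 6.89 for Tbx18. Over the fits that left out 1 library each, calls ranged from 1178 to 1517, homeobox genes called higher from 9 to 12 and lower from 8 to 10, and mesenchyme markers called higher from 1 to 3, with 3 reached without control 6. The log2 fold changes ranged from 7.91 to 8.60 for Emx2, 8.25 to 8.85 for Uncx, 4.90 to 6.12 for Tbx18 (the highest without control 5), 4.35 to 4.77 for Mn1 and -1.12 to -0.72 for Pou3f4. The relations within the ISL1CKO-labelled group that passed adjustment stayed at 0 in each of their alternatives.

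Same-numbered libraries had correlations of deviations of 0.0888, 0.0143, 0.0695, 0.00932, 0.152 and -0.0560, and only replicates 3 and 5 correlated best with their own number. With the replicate block the calls over all tested genes numbered 1450, with 9 homeobox genes higher and 9 lower, and Pbx3 did not pass (log2 fold change 0.68, adjusted p = 0.050). Limits are the number of libraries, the 3 libraries with mixed Xist and Y-linked transcripts, and the low counts of Tbx15 and of most mesenchyme and pericyte markers, for which absence cannot be shown.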

Other observations

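The pattern of at most 3 counts in every control and over 10 in every ISL1CKO-labelled library, met by Emx2 and Uncx, was also met by genes of other kinds. Pcdh8, a protocadherin, read 3.56 to 27.6 CPM in the ISL1CKO-labelled libraries, at least 58.1-fold above the floor. Shisa9, an auxiliary protein of AMPA receptors, read 1.86 to 18.8 CPM and was at least 36.3-fold higher. Rbm24, an RNA-binding protein of muscle and hair cells, and Casq2, the calsequestrin of heart muscle, were at least 22.7-fold and 20.2-fold higher. The opposite pattern held for the cholecystokinin receptor gene Cckar, at 5.47 to 21.0 CPM in the controls and at least 55.4-fold lower in the ISL1CKO-labelled libraries. It also held for the nicotinic receptor subunit gene Chrna6, at 1.74 to 4.34 CPM in the controls and at least 12.8-fold lower. These genes were singled out after their values were seen.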
